A study of Mus musculus with 12 samples.

Results

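The 7 genes described here encode subunits of NADPH oxidases: the catalytic subunits Cybb and Nox4, their membrane partner Cyba, the cytosolic subunits Ncf1 and Ncf4, and the small GTPases Rac1 and Rac2. They were taken by gene symbol from a count table of 24421 entries, and all 7 were found and passed the filter on low counts, among 13937 genes tested. The counts come from the tibialis anterior, a hindlimb muscle, of 6 WT libraries (strain C57Bl/6) and 6 libraries labelled mdx/mTR, all from males aged 4 months. The mdx allele inactivates Dmd, the dystrophin gene, and mTR denotes the telomerase RNA gene; the labels give neither the zygosity of the alleles nor the generation of the mice, and single mutants were not analysed here. Whole muscle was sequenced, so fibres, leukocytes, fibroblasts and vessels contribute RNA together.

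An NADPH oxidase passes electrons from NADPH across a membrane to oxygen and makes superoxide or hydrogen peroxide. In the phagocyte enzyme, Cybb (also called NOX2) and Cyba form the membrane core, which is idle until cytosolic subunits, Ncf1 and Ncf4 among them, move to it together with GTP-bound Rac. Nox4 also pairs with Cyba but is active without the cytosolic subunits and releases mainly hydrogen peroxide. Macrophages and neutrophils are rich in the phagocyte enzyme, while muscle fibres, fibroblasts and endothelial cells have been described with oxidases of both kinds.

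The genes lie on 4 autosomes and the X chromosome of GRCm38, the build called mm10 in the submitters' processing notes. In the GENCODE M21 annotation, Cybb spans positions 9435252 to 9487771 of chromosome X and Nox4 positions 87246096 to 87398710 of chromosome 7. Cyba spans 122424776 to 122432930 of chromosome 8, and Ncf1 134220053 to 134229625 of chromosome 5. Ncf4 spans 78244801 to 78262580 and Rac2 78559167 to 78572783, both on chromosome 15. Rac1 spans 143503634 to 143528036 of chromosome 5.

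The start regions of the 3 membrane subunits are printed because Cyba pairs with Cybb and with Nox4, while the 3 genes differed in the size of the change described below. Of the 7 genes, 4 (Cybb, Cyba, Ncf1 and Nox4) matched the promoter table used, from RefSeq on GRCm38.p6, which holds 250 bases before to 50 bases after each start. The sequences below run 5′ to 3′ on the strand of the gene. Capitals mark GAGGAA, a core of sites for the myeloid factor PU.1, and GGGCGG, a core of sites for Sp1, each searched on both strands.
Cybb, chrX:9469275-9469574, minus strand: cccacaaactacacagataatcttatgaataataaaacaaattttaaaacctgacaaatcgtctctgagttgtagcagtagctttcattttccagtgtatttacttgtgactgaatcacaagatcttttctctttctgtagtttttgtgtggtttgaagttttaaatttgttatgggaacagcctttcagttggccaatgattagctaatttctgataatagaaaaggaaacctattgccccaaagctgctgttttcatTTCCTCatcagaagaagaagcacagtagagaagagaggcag
Cyba, chr8:122432891-122433190, minus strand: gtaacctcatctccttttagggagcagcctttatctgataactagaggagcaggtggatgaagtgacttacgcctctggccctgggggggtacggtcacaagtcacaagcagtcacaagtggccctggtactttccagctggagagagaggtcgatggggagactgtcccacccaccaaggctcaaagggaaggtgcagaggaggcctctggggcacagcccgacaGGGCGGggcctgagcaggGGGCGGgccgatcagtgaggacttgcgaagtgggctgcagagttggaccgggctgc
Nox4, chr7:87246399-87246698, plus strand: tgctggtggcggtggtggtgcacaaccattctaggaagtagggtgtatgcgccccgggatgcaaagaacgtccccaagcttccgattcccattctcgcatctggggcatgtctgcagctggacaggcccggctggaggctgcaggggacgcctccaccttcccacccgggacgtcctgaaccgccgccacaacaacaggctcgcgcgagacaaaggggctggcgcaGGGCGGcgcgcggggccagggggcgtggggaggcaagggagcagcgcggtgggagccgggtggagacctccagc

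The Cybb region held 1 GAGGAA match, as TTCCTC 10 bases into the transcript, and 0 GGGCGG matches, whereas Cyba held 2 GGGCGG matches and Nox4 and Ncf1 held 1 each. Neither motif is rare: GAGGAA occurs in 28.3% and GGGCGG in 35.7% of the 32851 start regions in the table. Base composition also differed between the regions. Their GC content was 35.3% for Cybb, 60.7% for Cyba, 54.0% for Ncf1 and 68.3% for Nox4, against a median of 52.7% over all start regions. Cybb had 1 CpG and Nox4 24, which lie above 5.43% and 80.0% of all start regions. These matches and compositions are descriptions of the printed windows.

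Library totals ran from 35136327 to 60330410 counts, and levels are given as CPM, counts relative to library size after TMM scaling (the trimmed mean of M-values). A count of 0 leaves room for up to 3 counts, which equal 0.0460 to 0.0837 CPM depending on the library. Dmd fell in the mdx/mTR libraries (log2 fold change -2.34 ± 0.09 SE, adjusted p 8.3e-10 in edgeR's quasi-likelihood test), as the labels imply. Markers of muscle fibres dominated both groups, with 8 genes summing to 180720 to 211870 CPM in WT and 142770 to 197560 CPM in mdx/mTR. mdx/mTR replicate 5 stood apart by its leukocyte genes and held the highest level of 6 of the 7 members in its group, so the members and the main ratios and genes are also given without it. Nothing in the labels says that libraries of a group came from separate animals, and p-values measure the spread between these libraries.

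Cybb, Cyba, Ncf1, Ncf4, Rac2 and Nox4 all rose in mdx/mTR, by 2.51-fold (Cyba) to 3.99-fold (Cybb), and for each of them all 6 mdx/mTR libraries lay above all 6 WT libraries. Rac1 did not pass the test and overlapped between groups. Thus 6 of 7 members were called higher at an adjusted p below 0.05 in edgeR, where 25.0% of all tested genes were called higher, 23.4% lower and 48.3% in either direction. All 6 were also at least 2-fold higher, as were 7.24% of tested genes. The median log2 fold change of the 7 was 1.57, against 0.01 over all tested genes, and groups without overlap and mdx/mTR above occurred for 12.6% of tested genes. In bulk muscle, more cells of a type and more RNA per cell cannot be told apart. Scaling to library totals in place of TMM shifted the median of all genes by 0.155 on the log2 scale, which turned 3479 higher and 3257 lower calls into 5590 higher and 1560 lower; the changes below are relative to TMM.

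**Figure D1:**
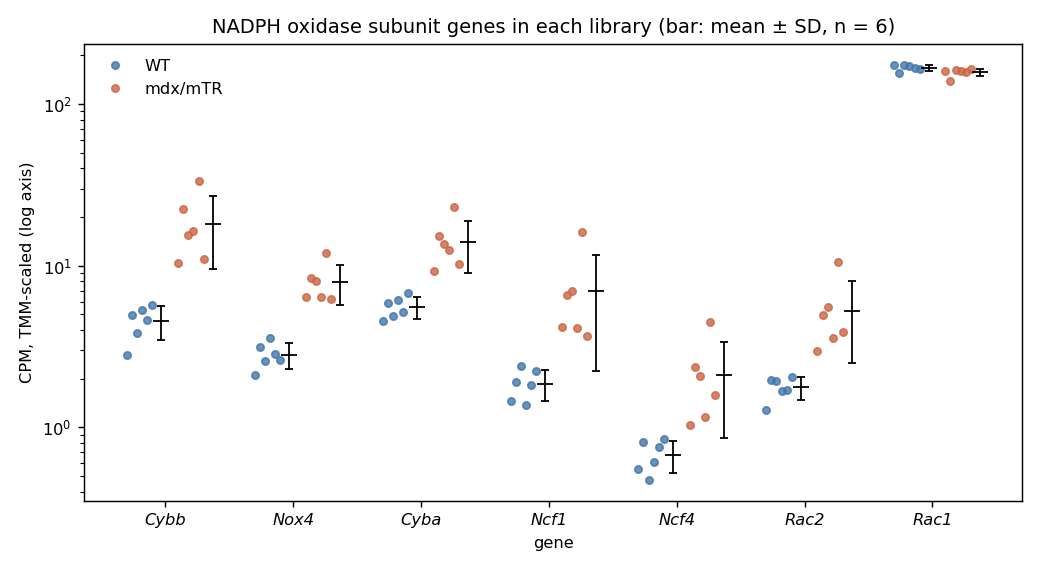
Level of each NADPH oxidase subunit gene (CPM, TMM-scaled, log axis) in the 6 WT and 6 mdx/mTR libraries; points are libraries and bars mean ± SD. The groups are separate for the 6 genes other than Rac1, and the highest mdx/mTR point of those 6 genes is replicate 5, for example 33.4 CPM for Cybb.

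Cybb, the catalytic subunit of the phagocyte oxidase, rose by 3.99-fold. It ranged from 2.81 CPM through a median of 4.78 to 5.72 CPM in WT, and from 10.3 through 15.9 to 33.4 CPM in mdx/mTR. The lowest mdx/mTR library thus exceeded the highest WT library. Means were 4.55 ± 1.06 and 18.2 ± 8.64 CPM (SD, n = 6 per genotype), a log2 fold change of 1.997 ± 0.27 SE (edgeR adjusted p 6.6e-05), higher than that of 98.4% of tested genes. Without mdx/mTR replicate 5 the mean was 15.1 ± 4.91 CPM and the log2 fold change 1.73 (edgeR adjusted p 3.1e-05).

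Nox4, the catalytic subunit that needs no cytosolic partner, changed less but with the narrowest mdx/mTR spread of the 6 genes that rose. WT libraries held 2.11, 2.74 and 3.58 CPM (lowest, median, highest) and mdx/mTR libraries 6.20, 7.23 and 12.01 CPM. The 12.01 CPM belonged to replicate 5, and the other 5 mdx/mTR libraries reached at most 8.36 CPM. The log2 fold change was 1.49 ± 0.17 SE (edgeR adjusted p 1.9e-05), and 1.32 without that library. Its coefficient of variation in mdx/mTR was 28.0%, against 35.8% for Cyba and 67.9% for Ncf1.

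Cyba, the membrane partner of both catalytic subunits, was at 4.53, 5.50 and 6.81 CPM in WT and at 9.22, 13.0 and 23.1 CPM in mdx/mTR. All mdx/mTR libraries were again above WT, with a smaller distance than for Cybb. Its log2 fold change was 1.33 ± 0.20 SE (edgeR adjusted p 1.2e-04), and 1.13 without mdx/mTR replicate 5.

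Ncf1 is the organiser that carries the cytosolic complex to the membrane, and Ncf4 binds membrane phosphoinositides. Ncf1 was at 1.38, 1.86 and 2.39 CPM in WT and at 3.65, 5.40 and 16.1 CPM in mdx/mTR, a rise of 1.90 ± 0.34 SE on the log2 scale (edgeR adjusted p 5.6e-04). Ncf4 was the lowest member, at 0.472, 0.684 and 0.848 CPM in WT and 1.03, 1.83 and 4.45 CPM in mdx/mTR (1.63 ± 0.34 SE, edgeR adjusted p 0.0013). The lowest mdx/mTR library of Ncf4 was close to the highest WT library, and its counts were 17 to 31 per WT library. The highest values of both genes came from mdx/mTR replicate 5, without which the log2 fold changes were 1.45 and 1.27 (edgeR adjusted p 8.7e-05 and 9.4e-04). In the annotation 7.91% of the 50-base stretches of the Ncf1 transcript lie within the oppositely oriented gene Gtf2ird2. Strand handling is not given in the sources used here, so reads from that stretch cannot be told apart; Gtf2ird2 fell (log2 fold change -0.33, edgeR adjusted p 0.0089).

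The Rac GTPases differed from each other. Rac2, whose expression is largely restricted to blood cells, was at 1.28, 1.82 and 2.05 CPM in WT and at 2.94, 4.43 and 10.5 CPM in mdx/mTR. It rose by 1.57 ± 0.28 SE on the log2 scale (edgeR adjusted p 4.4e-04), and by 1.24 without replicate 5. Rac1, which nearly all cells express and which also organises actin and glucose transport in muscle, was at 156, 169 and 175 CPM in WT and at 140, 159 and 164 CPM in mdx/mTR. Its log2 fold change was -0.10 ± 0.05 SE (edgeR adjusted p 0.107), and 0.06 when libraries were scaled to their totals (adjusted p 0.301). Without mdx/mTR replicate 5 it was again -0.10 (edgeR adjusted p 0.119). In the annotation 54.99% of the 50-base stretches of the Rac1 transcript also lie in Daglb on the opposite strand, so its level is uncertain. Daglb itself was at 22.0 ± 0.991 CPM in WT (SD, n = 6) against 20.2 ± 1.58 CPM in mdx/mTR (SD, n = 6).

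In the authors' deposited table the same 6 genes have an adjusted p below 0.05, as do 50.1% of the genes with an adjusted p there. Its log2 fold changes run from 1.24 for Cyba to 1.70 for Cybb, with 1.40 for Nox4. The authors' deposited table gives Rac1 -0.11 with an adjusted p of 0.0673.

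Per kilobase of the longest coding transcript, the order of the members was led by Rac1 in both groups. Rac1 had 40.4 ± 1.67 CPM per kb in WT, against 37.8 ± 2.14 in mdx/mTR, followed by Cyba with 7.46 ± 1.15 and 18.8 ± 6.73, and Cybb with 0.956 ± 0.224 and 3.82 ± 1.82 (SD, n = 6 each). The ranges of these 3 genes over libraries did not overlap within a group. Below them in WT came Nox4 (0.750 CPM per kb), Ncf1 (0.645), Rac2 (0.581) and Ncf4 (0.461), and each overlapped its neighbour in the order, Cybb and Nox4 included. In mdx/mTR the levels were 2.41 for Ncf1, 2.11 for Nox4, 1.73 for Rac2 and 1.44 CPM per kb for Ncf4, again with overlap between neighbours. With the length of all annotated exons instead, Rac1, Cyba and Cybb kept the first 3 places and Nox4 moved to the last place in both groups.

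Ratios within a library do not depend on how libraries are scaled, and 12 were tested with 2-sided exact permutation tests, adjusted over the 12; the smallest p possible is 0.00216. Cybb gained on Cyba: the log2 ratio of Cybb to Cyba was -0.69 to -0.15 in WT and 0.12 to 0.56 in mdx/mTR. Back-transformed from the mean log2 ratio, that is a geometric mean of 0.806 Cybb counts per Cyba count in WT and 1.25 in mdx/mTR. The groups did not overlap, with a difference of 0.64 ± 0.11 SE (exact permutation p 0.00216, adjusted p 0.0065). Rac2 gained on Rac1 as well, from a mean log2 ratio of -6.59 ± 0.29 to -5.04 ± 0.67 (SD over 6 libraries; p 0.00216 by exact permutation, adjusted p 0.0065), with higher values in 6 of 6 mdx/mTR libraries. As geometric means, Rac2 had 0.0104 counts for each Rac1 count in WT and 0.0305 in mdx/mTR. Without mdx/mTR replicate 5 the differences were 0.59 for Cybb over Cyba and 1.33 for Rac2 over Rac1, and both passed.

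The remaining members were compared with Cybb. The log2 ratio of Ncf1 to Cybb was -1.28 ± 0.43 (SD) for WT and -1.47 ± 0.37 (SD) for mdx/mTR, a difference of -0.19 ± 0.23 SE (p 0.416 by exact permutation, adjusted p 0.453). For Ncf4 the difference was -0.42 ± 0.20 SE (exact permutation p 0.0541, adjusted p 0.0812). For Nox4 it was -0.45 ± 0.17 SE (exact permutation p 0.0346, adjusted p 0.0594), with 3 of 6 mdx/mTR libraries below the lowest WT library. None of these 3 ratios passed after adjustment, and their groups overlapped. The Nox4 ratio did pass without WT replicate 6 (adjusted p 0.0223), without mdx/mTR replicate 1 (0.0260) and without mdx/mTR replicate 6 (0.0482), each by the exact permutation test, and the Ncf4 ratio without mdx/mTR replicate 6 (0.0487).

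**Figure D2:**
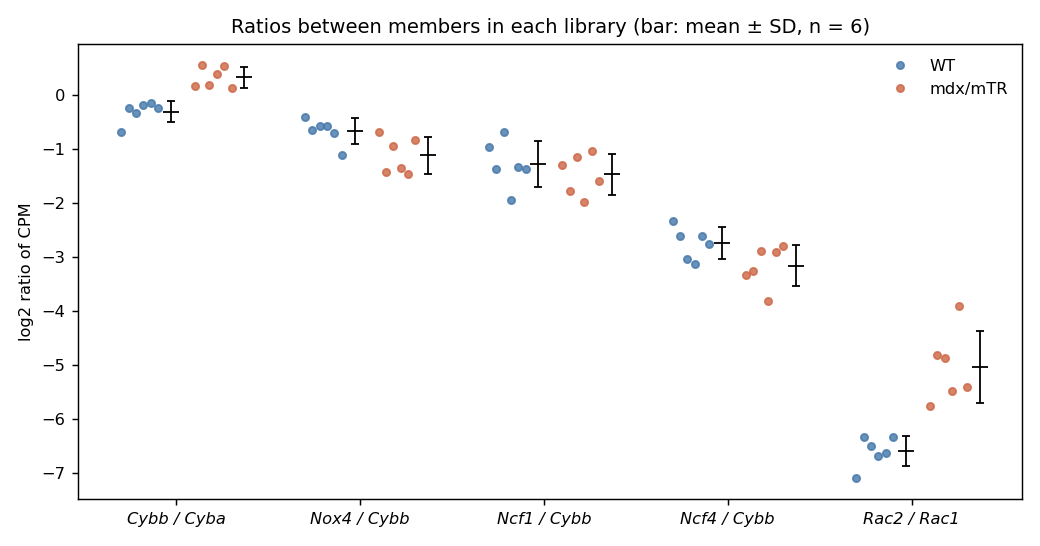
Log2 ratio of CPM between pairs of subunit genes in each of the 6 WT and 6 mdx/mTR libraries, with mean ± SD. The groups are separate for Cybb over Cyba (at most -0.15 in WT, at least 0.12 in mdx/mTR) and for Rac2 over Rac1, and overlap for the 3 other pairs.

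Markers of macrophages and monocytes moved with the members. All 12 genes of that list rose, and their sum went from 104 to 181 CPM over the WT libraries to 341 to 942 CPM over the mdx/mTR libraries; Ctss (log2 fold change 3.01, and 2.77 without mdx/mTR replicate 5) and Mpeg1 (3.02 and 2.76) had the smallest p-values. The highest sum, like the highest Cybb, Cyba, Ncf1, Ncf4, Rac2 and Nox4, belonged to mdx/mTR replicate 5, and the next mdx/mTR library had 680 CPM. Each member was therefore also expressed per summed marker level in the same library.

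Each member was set against the marker sum in turn. The log2 ratio of Cybb to that sum was -5.00 ± 0.19 for WT and -5.01 ± 0.15 for mdx/mTR (SD over 6 libraries), a difference of -0.01 ± 0.10 SE (exact permutation p 0.948, adjusted p 0.948). This p does not show that the ratios are equal, and the sign of so small a difference turned in 5 of the 12 comparisons without a library. Ncf1 (difference -0.20 ± 0.20 SE, exact permutation p 0.346, adjusted p 0.416) and Ncf4 (-0.43 ± 0.21 SE, exact permutation p 0.0714, adjusted p 0.0952) did not pass. Cyba fell against the sum of the markers in 6 of 6 mdx/mTR libraries, by 0.64 ± 0.08 SE on the log2 scale (exact permutation p 0.00216, adjusted p 0.0065). Rac2 fell by 0.47 ± 0.14 SE (exact permutation p 0.00866, adjusted p 0.0208), with 4 of 6 mdx/mTR libraries below all WT libraries. Rac1, whose own level moved little, fell by 2.02 ± 0.27 SE against them (exact permutation p 0.00216, adjusted p 0.0065). Nox4 fell by 0.45 ± 0.15 SE (exact permutation p 0.0195, adjusted p 0.0390), but this call was lost in 8 of the 12 comparisons without a library. With the mean of log2 marker levels in place of their sum, neither Rac2 (-0.33, adjusted p 0.0519) nor Nox4 (-0.32, adjusted p 0.0812) passed the exact permutation test, while Cybb differed by 0.13 and Ncf1 by -0.07. Without mdx/mTR replicate 5 and with the sum, Cyba (-0.64), Rac1 (-1.86) and Rac2 (-0.53) passed and Nox4 (-0.42, adjusted p 0.0705) did not. The markers rose unequally, and abundant ones weigh most in the sum, where Lyz2 averaged 207 of 571 CPM in mdx/mTR. Cyba, with a log2 fold change of 1.33, rose about as much as Csf1r (1.32). It rose more than Mrc1 (1.13) and Cd14 (1.20) and less than the other markers of the list. Whether the number of macrophages accounts for the change of any member was not tested.

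**Figure D3:**
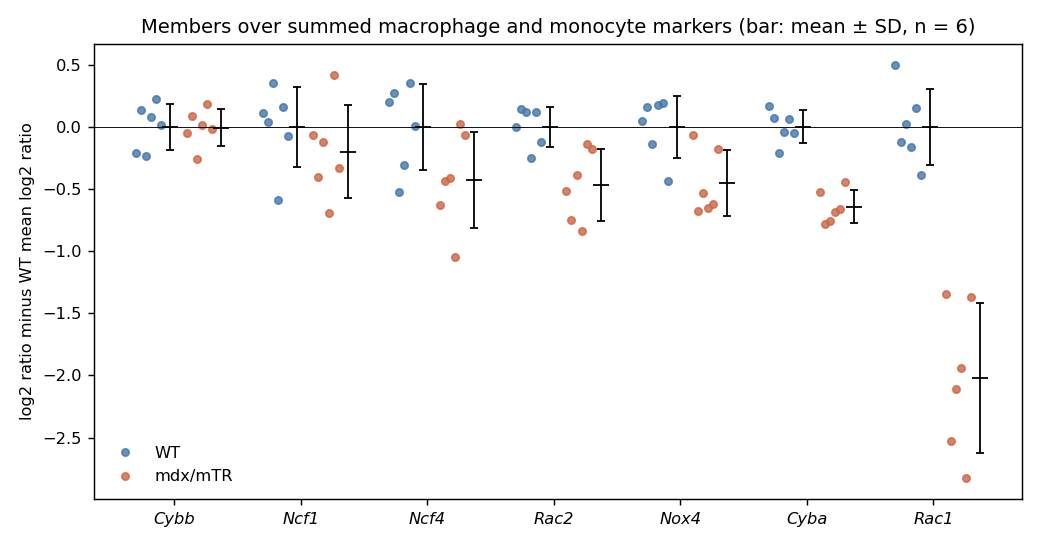
Log2 ratio of each subunit gene to the summed CPM of 12 macrophage and monocyte markers, minus the WT mean, in 6 WT and 6 mdx/mTR libraries with mean ± SD. Cybb sits around 0 in both groups, Cyba and Rac1 lie below WT in 6 of 6 mdx/mTR libraries, and the mdx/mTR values of the other genes overlap WT.

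Other cell types that can hold these subunits were measured alongside. Of 11 neutrophil markers present in the table, 3 were tested and 2 rose, Csf3r (log2 fold change 2.33) and S100a8 (2.22). The neutrophil sum was 0.750 to 2.80 CPM in WT and 2.004 to 4.11 CPM in mdx/mTR apart from replicate 5, which had 20.9 CPM. Without that library the log2 fold changes were 1.46 for Csf3r and 1.30 for S100a8, and 1 of the 3 passed. Granule genes of neutrophils such as Mpo, Elane, Ltf, Ngp and Camp were too low to test. Of 7 T and NK cell markers, Cd4 was the only gene abundant enough to test, and it rose (2.84 ± 0.37 SE). Cd4 averaged 1.68 CPM in mdx/mTR, where Cd3d, Cd3e and Cd3g had 0.071, 0.165 and 0.086 CPM. Lck, the highest of the untested markers, had 0.422 CPM, so the rise of Cd4 does not stand for the list. Of 6 B cell markers 2 were tested and neither passed (0 had an unadjusted p below 0.05 in edgeR; that of Cd79b was 0.536).

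Fibroblast markers rose in 7 of 8 cases, with the smallest p-values for Pdgfra (0.91, and 0.84 without mdx/mTR replicate 5) and Dpt (0.94 and 0.90), and their sum went from 917 to 1644 CPM in WT to 2276 to 4492.5 CPM in mdx/mTR. The mean of that sum was 2.48 times higher in mdx/mTR, beside 2.80-fold for Nox4 and 3.97 times for the macrophage sum. Most of the fibroblast sum came from Col3a1 (mean 518 CPM in WT, 1654 in mdx/mTR) and Col1a1 (270 and 712). Of the other fibroblast markers Pi16 did not pass, and the rest rose by 1.51-fold (Dcn) to 2.61-fold (Lum). Of 8 endothelial markers 5 fell, among them Tek (-0.53) and Vwf (-0.52), and 1 rose. Of 6 smooth muscle and pericyte markers 4 fell, among them Notch3 (-0.36) and Myh11 (-0.42), and 1 rose. With library totals Tek, Emcn and Vwf of the 5 endothelial genes still passed as lower (edgeR adjusted p 4.4e-04, 0.0213 and 0.0159), while Kdr (0.0970) and Egfl7 (0.888) did not. Of the 4 smooth muscle and pericyte genes Myh11 still passed (0.0292), while Rgs5 (0.0688), Kcnj8 (0.141) and Notch3 (0.110) did not. Of 6 satellite cell and myoblast markers 4 rose, with Myog (2.46) and Myod1 (0.93) first, and 1 fell. Of 8 fibre markers 1 rose and 2 fell, Ryr1 (-0.52) and Myh4 (-0.62). Among red blood cell markers, Hba-a1, Hba-a2, Hbb-bs and Hbb-bt were listed at 0 in every library, and neither Alas2 (-0.64) nor Slc4a1 (-0.42) passed. The part of these cell types in the members' changes was not tested.

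The genes that varied most like each member were sought among 12206 tested genes with a mean of at least 1 CPM, by Pearson's r of log2(CPM + 0.5) after subtracting group means over the 12 libraries. The points share their libraries, and mdx/mTR replicate 5 lies far from the rest, so these are descriptions. Cybb was most like Coro1c (r 0.974), Lipa (0.972) and its own partner Cyba (0.968). Cyba was most like the leukocyte actin-bundling gene Lcp1 (0.987), Sirpa (0.982) and Kctd11 (0.978). Rac2 was most like the integrin gene Itgam (0.989), then Fes (0.979) and Plaur (0.972). Ncf4 was most like Lpxn (0.970), Tfe3 (0.968) and Plaur (0.967), and Ncf1 most like Erp29 (0.973), Fes (0.960) and Arl8a (0.960). Nox4 was most like Thbs4 (0.962), Lsp1 (0.957) and Igfbp4 (0.955). It also varied with the other members that rose, with r of 0.764 (Ncf1) to 0.874 (Cybb). By the same measure r was 0.779 between Cybb and Ncf1. For Rac1 they were Smtnl2 (0.975), Rab12 (0.939) and Pcx (0.937), all of which fell.

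The remaining oxidase subunits formed a list of 14 genes, of which Cybc1 did not match an entry by symbol. Of the 13 in the table, 8 were tested, 3 rose and 0 fell in edgeR (unadjusted p was below 0.05 for 0 genes in the lower direction, and DESeq2 also called 0 lower). Of all tested genes 25.0% were called higher and 23.4% lower, and a list of 8 genes is small beside such shares. The median log2 fold change of the 8 was 0.12, against 0.01 over all tested genes.

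The scaffold genes Sh3pxd2b and Sh3pxd2a, relatives of Ncf1 that organise podosomes, were among the genes that rose. Sh3pxd2b went from 9.41 ± 1.39 to 23.6 ± 5.32 CPM (SD, n = 6 each; log2 fold change 1.33 ± 0.14 SE, edgeR adjusted p 8.2e-06), and 1.21 without mdx/mTR replicate 5. Sh3pxd2a differed by 0.16 ± 0.06 SE (edgeR adjusted p 0.0458), close to the threshold. The count of 3 higher genes became 2 in 8 of the 12 fits without a library (WT replicates 2, 3, 5 and 6, mdx/mTR replicates 1, 3, 5 and 6), and also with DESeq2 size factors and with no filter. In the authors' deposited table Sh3pxd2a has an adjusted p of 0.0514. Noxo1, the organiser of the epithelial oxidase, had a log2 fold change of 0.38 ± 0.18 SE (edgeR adjusted p 0.0871). Duox1 (-0.19), Duoxa1 (0.07), Rac3 (-0.18) and Poldip2 (-0.03) did not pass either. With library totals Noxo1 (adjusted p 0.0211) and Poldip2 (0.0301) passed as higher in edgeR, which made 5. The other catalytic subunits were at or near 0: Nox3 had 0 counts in all libraries, Nox1 at most 3 per WT and 7 per mdx/mTR library, and Duox2 at most 8. Noxa1 and Duoxa2 had at most 2 counts in any library. Cybb, Nox4 and Duox1 were therefore the catalytic subunit genes abundant enough to test, and of these Duox1 had 33 to 54 counts per WT library.

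**Figure D4:**
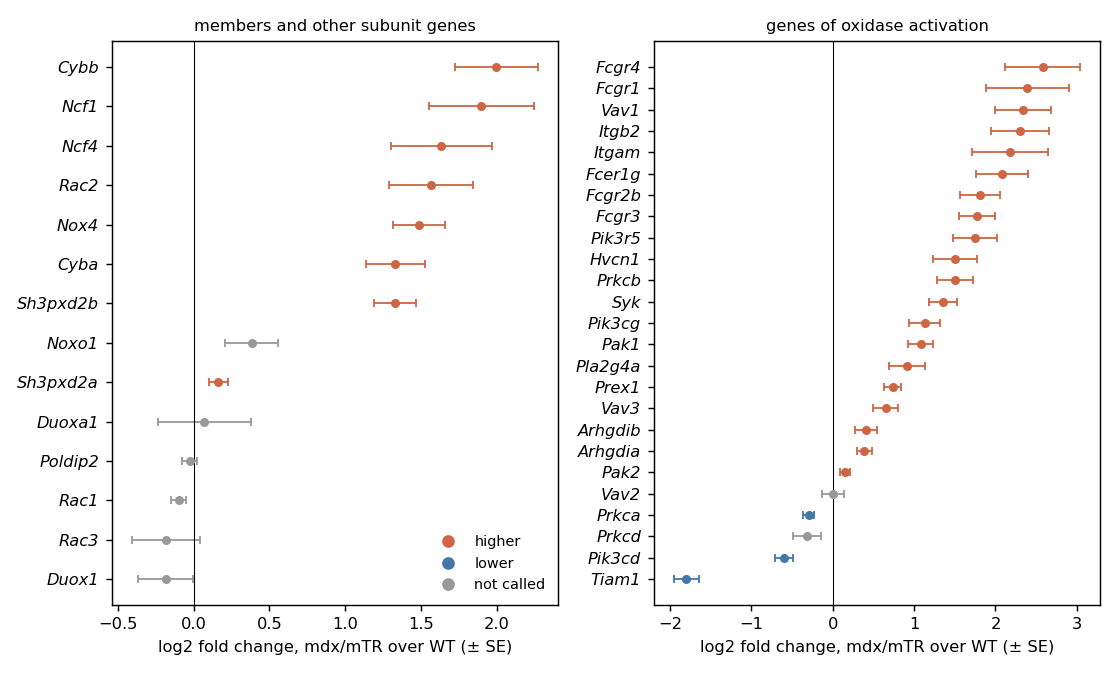
Difference between mdx/mTR and WT on the log2 scale, with SE, for the 7 members and 7 of the other subunit genes tested (left) and for 25 genes of oxidase activation (right). Colour gives the edgeR call at an adjusted p below 0.05: 6 members, Sh3pxd2b and Sh3pxd2a lie to the right, Rac1 lies near 0, and Tiam1 (-1.80) has the lowest value.

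Genes around the activation of the phagocyte oxidase changed widely. Of 25 genes for receptors, kinases and regulators of Rac, activating and inhibitory, 20 rose, 3 fell and 2 did not pass. Of all tested genes 25.0% were called higher and 23.4% lower. The median log2 fold change of the list was 1.13, against 0.01 over all tested genes. The activating immunoglobulin receptor gene Fcgr3 (4.02 CPM at the median in WT, 12.8 in mdx/mTR; log2 difference 1.77 ± 0.22 SE) and the inhibitory receptor gene Fcgr2b (3.87 and 11.97 CPM; 1.81 ± 0.24 SE) had adjusted p of 3.5e-05 and 5.7e-05 in edgeR. Syk, a kinase downstream of activating receptors such as Fcgr3, went from a median of 5.64 to 13.3 CPM (1.36 ± 0.17 SE, edgeR adjusted p 3.8e-05). In these 3 genes all mdx/mTR libraries were above all WT libraries. Over all tested genes, 12.6% had all mdx/mTR libraries above WT and 12.6% had all below. Tiam1, an exchange factor that loads Rac1, fell from 11.9 to 3.23 CPM at the median, with all 6 mdx/mTR libraries (2.37 to 5.37 CPM) below all WT libraries (10.9 to 13.5 CPM). Its log2 fold change of -1.80 ± 0.15 SE (edgeR adjusted p 1.5e-06) had the smallest p of the list. Without mdx/mTR replicate 5, 19 of the 25 rose and 4 fell, and the log2 fold changes were 1.60 for Fcgr3, 1.56 for Fcgr2b, 1.21 for Syk and -1.97 for Tiam1. Most of these genes are also expressed by leukocytes, whose markers moved as given above.

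Enzymes that remove superoxide and peroxide did not follow a single direction. Of 13 genes 5 rose, 6 fell and 2 did not pass, with a median log2 fold change of -0.14 against 0.01 over all tested genes. These are 13 genes where 25.0% of all tested genes were called higher and 23.4% lower. Gpx1, a cytosolic glutathione peroxidase, rose from 40.7 ± 5.30 to 78.5 ± 5.10 CPM (SD, n = 6 each; 0.95 ± 0.08 SE, edgeR adjusted p 1.2e-06), and the secreted dismutase Sod3 rose from 8.98 ± 0.823 to 17.6 ± 3.76 CPM (0.97 ± 0.13 SE, edgeR adjusted p 4.7e-05). Catalase (Cat) fell from 162 ± 23.5 to 89.7 ± 16.8 CPM (-0.85 ± 0.12 SE, edgeR adjusted p 7.4e-05). Sod2, the mitochondrial dismutase, fell from 398 ± 18.7 to 292 ± 26.0 CPM (-0.45 ± 0.06 SE, edgeR adjusted p 8.0e-05). The groups of these 4 genes did not overlap, as was so for 25.2% of all tested genes. With library totals 3 genes of the list fell in place of 6, while Cat (-0.70) and Sod2 (-0.29) kept their direction. Without mdx/mTR replicate 5 the log2 fold changes were 0.93 for Gpx1, 0.87 for Sod3, -0.80 for Cat and -0.40 for Sod2.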

How the data were processed

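The members and gene lists were chosen with earlier results of these data known, as were the alternatives. The authors deposited whole-number counts per gene symbol for 12 tibialis anterior libraries, used as deposited, and 0 sample columns were left unmapped. STAR, DESeq2 and FastQC and the build mm10 are named in the submitters' processing notes; counter, annotation and strand handling are not given in the sources used here. The authors' deposited table holds, per the file headers, a mean normalised signal, log2 fold changes with standard errors, a test score and p-values. Counts were fitted in edgeR 4.0.16 (R 4.3.3; filterByExpr, TMM, quasi-likelihood test on group, Benjamini-Hochberg over 13937 genes, threshold 0.05); the SE is the size of the log2 fold change divided by the square root of F. The fit was also run on simulated data, in which far fewer genes were changed than were called here. That run therefore does not vouch for the fit in these data. limma 3.58.1, DESeq2 1.42.0, other scalings and filters, a replicate block and leaving out each library were alternatives. Replicates differed by more than sampling noise (chi-square per degree of freedom at least 8.87). Named genes are the members, other subunits, the 4 smallest p-values of the other pathway lists, the 2 smallest of each marker list and the 3 most alike genes of each member; the remainder were chosen after their values were seen. Some genes of the lists are counted but not reported here. Limits set by counts cover counting error only, because reads carry no molecular identifiers.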

Additional observations from a re-analysis of the deposited data

Results flagged for a closer look

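Among the 7 members and 12 ratios, 38 groups of 6 libraries were searched for a library whose gap to its neighbour, as a share of the range of the group, exceeds Dixon's 95% critical value. Chance flags about 1 in 20 groups, 1.9 of these 38, and 5 were found; the values are not independent, since the ratios reuse the members. In mdx/mTR replicate 5, the level of Ncf1 was 16.1 CPM, while its 5 fellow libraries held 3.65 to 6.997 CPM. Rac2 reached 10.5 CPM there (the others 2.94 to 5.58 CPM) and Nox4 12.01 CPM (the others 6.20 to 8.36 CPM). Rac1 was lowest in mdx/mTR replicate 2, with 140 CPM where the remaining libraries had 158 to 164 CPM. In WT replicate 1 the log2 ratio of Cybb to Cyba was -0.69, against -0.33 to -0.15 in the other WT libraries.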

How the results depend on the processing

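Cybb, Cyba, Ncf1, Ncf4, Rac2 and Nox4 were called higher under all 21 alternatives, with log2 fold changes of 1.13 (Cyba) at the lowest and 2.18 (Cybb) at the highest. Rac1 passed in none, with adjusted p of 0.0545 to 0.320, and its sign turned with library totals alone (0.0573), where 5 other subunit genes were higher and 3 genes of superoxide and peroxide removal lower. With 1 CPM added to both genes of a ratio, 5 more ratios passed: Ncf4 over Cybb (-0.89), Nox4 over Cybb (-0.50), and Cybb (-0.21), Ncf1 (-0.59) and Ncf4 (-1.10) over macrophage markers; an added CPM weighs more on low genes. With mean log2 marker levels Cybb over the markers was 0.13, and Rac2 (-0.33) and Nox4 (-0.32) no longer passed. Without a library, ranges were -0.0537 to 0.0437 for Cybb and -0.54 to -0.41 for Nox4 over the markers, -0.54 to -0.38 for Nox4 over Cybb and -0.50 to -0.29 for Ncf4 over Cybb. The cause of these shifts was not tested.

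Same-numbered libraries had correlations of deviations from -0.155 to 0.354, with 0.354 for replicate 1 and 0.285 for replicate 2. These correlations were not tested, so they do not settle whether the numbers pair the libraries. With a replicate block 6420 genes were called in place of 6736, and the 6 members remained called, while the count of other subunit genes called higher went from 3 to 2. In the paired exact permutation test the smallest possible p is 0.03125, which passes adjustment over the 12 ratios only where enough ratios reach it. None of the ratios called before passed in that test. Its adjusted p was 0.0750 for Rac2 over Rac1 (1.55) and for Cybb over Cyba (0.64). Over the markers, adjusted p was also 0.0750 for Cyba (-0.64), Rac1 (-2.02) and Rac2 (-0.47), and 0.125 for Nox4 (-0.45). Depth limits Ncf4 most, at 17 counts in its lowest library.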
